A study of Homo sapiens with 3 samples.

Results

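The genes described here are 6 growth factor receptors (EGFR, ERBB2, ERBB3, MET, AXL and IGF1R) and 4 ligands of the EGF family (AREG, EREG, HBEGF and TGFA) in PC3 cells with and without knockdown of USP16. They were taken by symbol from the deposited expression table, which holds 59719 gene names, and all 10 were found there. PC3 is an androgen-independent human prostate cancer cell line. RNA-seq was performed on 3 libraries of PC3 cells: the vector control shCON, which the labels also describe as RFP, and cells expressing shUSP16#1 or shUSP16#2, which are hairpins against the deubiquitinase USP16, cloned in the pLKO.1 vector. The paper reports that stable PC3 transformants were selected with puromycin, and no further treatment of the cells is given. Each condition had 1 library, so there is no replicate spread, no test was possible, and every difference is a description of these libraries. Both hairpins were compared with the same shCON library, and the hairpins are not replicates of each other.

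Receptor tyrosine kinases span the cell membrane, bind a growth factor outside the cell and signal through RAS-MAP kinase and PI3 kinase inside it. EGFR, ERBB2 and ERBB3 are members of the ERBB family and act as pairs: EGFR binds the EGF-family ligands, ERBB2 has no known ligand of its own and serves as a partner, and ERBB3 binds neuregulins and has a weak kinase. MET is the receptor of hepatocyte growth factor, AXL of GAS6, and IGF1R of the insulin-like growth factors. The EGF-family ligands are made as membrane proteins, and ADAM proteases on the cell surface release the soluble factor. In prostate cancer cells that grow without androgen, these receptors are known routes of growth signalling.

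The hairpin sequences show what was targeted, and neither occurs in a transcript of any of the 10 genes (0 with a match). In GRCh38 with GENCODE 29, the shUSP16#1 target lies after the stop codon of USP16, at chr21:29054296-29054316 on the plus strand, and the shUSP16#2 target lies in the coding sequence across an exon junction, between 29053942 and 29054069. Each was found in 3 of 4 coding USP16 transcripts. The sense strands, 5′ to 3′, with no letters marked, are:
shUSP16#1: gccagaagaaatcatgtttat
shUSP16#2: cggtgatattccacaagattt

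USP16 itself was at 19.9 TPM (a transcript level scaled to gene length and to the total of its library) in shCON, 3.50 with shUSP16#1 and 1.08 with shUSP16#2. The targeted transcript thus followed the labels, with the lower level with shUSP16#2. Changes below are differences in log2(TPM + 1), hairpin minus shCON, which understate the change of genes at low levels. A gene was compared when its mean over the 3 libraries was at least 1 TPM, which held for 13637 genes, and it is said to have risen or fallen only where it moved at least 2-fold on this scale. The median change over the compared genes was −0.17 with shUSP16#1 and −0.37 with shUSP16#2, and 73.4% of the compared genes were lower with shUSP16#2 than with shUSP16#1. Changes also moved with the GC content of the transcript, with GC-rich transcripts higher under the hairpins than GC-poor ones. Values with that trend removed are therefore given for the leading genes. To remove it, the median change of genes of like GC content was subtracted and the median of all compared genes added back. Such values thus still hold the median change of −0.17 or −0.37, and the part of GC content in them was not tested. All 5 epithelial markers were present in every library, and 4 of the 5 were lower than shCON with both hairpins. In the order shCON, shUSP16#1 and shUSP16#2, the keratins KRT8, KRT18 and KRT19 were at 748, 622 and 642 TPM, at 947, 778 and 893 TPM and at 507, 838 and 958 TPM. The adhesion genes EPCAM and CDH1 were at 273.5, 165.6 and 135.9 TPM and at 65.8, 50.6 and 46.4 TPM, and EPCAM fell with shUSP16#2. The androgen receptor was at 0, 0.02 and 0 TPM, KLK3 and KLK2 were listed at 0, and TMPRSS2 was at 1.13, 3.68 and 1.63 TPM. The 7 markers of blood, endothelial and stromal cells summed to 5.31, 12.2 and 6.54 TPM, most of it COL1A1, with DCN at 0.

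Of the 10 genes, 9 passed the minimum, and EREG did not. MET fell under both hairpins, ERBB2 rose with shUSP16#2 and was just under 2-fold higher with shUSP16#1, and IGF1R, AREG and HBEGF fell with shUSP16#2. In direction alone, 7 of the 9 were lower than shCON under both hairpins and 1, ERBB2, was higher under both, where 57.2% of all compared genes were lower and 24.5% higher under both. Under shUSP16#1, 1 of the 9 fell and 0 rose, against 5.79% and 2.83% of all compared genes. Under shUSP16#2, 4 of the 9 fell and 1 rose, against 19.5% and 2.80% of all compared genes. Only MET passed 2-fold lower under both, against 4.60% of all genes, and 0 passed 2-fold higher under both, against 1.14%. With so few members these counts are not set apart from the background, and the description below turns on the single genes.

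**Figure D1:**
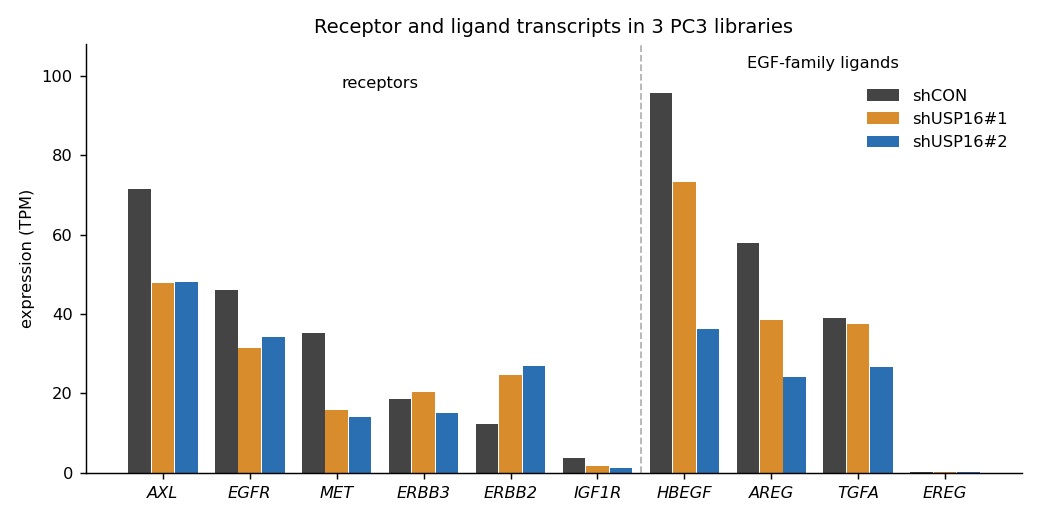
TPM of the 10 genes in the shCON, shUSP16#1 and shUSP16#2 libraries, with receptors and ligands set apart. There are no error bars because each condition had 1 library. MET is lower in both hairpin libraries than in shCON (35.1, 15.8 and 14.2 TPM), ERBB2 is higher in both (12.4, 24.8 and 26.9 TPM), and AREG and HBEGF step down from shCON to shUSP16#1 to shUSP16#2.

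MET, the receptor of hepatocyte growth factor (ENSG00000105976, chr7:116672390-116798386, GRCh38, plus strand), was at 35.1 TPM in shCON, 15.8 TPM with shUSP16#1 and 14.2 TPM with shUSP16#2. Both hairpin libraries lay close together and well below shCON, at 0.449 and 0.404 of its level. The changes in log2(TPM + 1) were −1.11 and −1.25, and the mean change lay at percentile 6.32 among all compared genes. In bulk RNA, fewer cells with the transcript and less of it per cell cannot be told apart. Relative to the median gene the changes were −0.94 and −0.88, which no longer pass 2-fold. The MET transcript has a GC content of 42.4%, below the median of 49.1%. The 1100 genes within 1 percentage point of it had median changes of −0.48 and −0.79. With the GC trend removed, MET stood at −0.85 and −0.86, values that still hold the median changes of all compared genes. Hepatocyte growth factor (HGF) was listed at 0 in all 3 libraries, and MST1R, the sister receptor of MET, was at 25.9, 30.4 and 38.4 TPM.

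ERBB2, the partner receptor also known as HER2 (ENSG00000141736, chr17:39687914-39730426, plus strand), was at 12.4 TPM in shCON, 24.8 TPM with shUSP16#1 and 26.9 TPM with shUSP16#2. Both hairpin libraries were above shCON and close to each other, with TPM ratios of 2.00 and 2.17. On the log2(TPM + 1) scale the changes were 0.94 and 1.06, so that only the latter passed 2-fold, and the mean change lay at percentile 97.5 of all compared genes. Relative to the median gene, ERBB2 was past 2-fold under both, at 1.12 and 1.43. The GC content of its transcript is 57.5%, and the 846 genes within 1 percentage point of it had median changes of 0.08 and 0.01. With the GC trend removed, the changes of ERBB2 were 0.71 and 0.70, under 2-fold. These values still hold the median changes of all compared genes, −0.17 and −0.37, and so are not distances from the GC-matched medians.

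EGFR, the receptor of the 4 ligands (ENSG00000146648, chr7:55019021-55211628, plus strand), was at 46.0, 31.5 and 34.3 TPM in shCON, shUSP16#1 and shUSP16#2. Both hairpin libraries were lower than shCON by less than 2-fold, with changes of −0.53 and −0.41. Relative to the median gene the shUSP16#2 value was −0.04. ERBB3, the receptor of neuregulins (ENSG00000065361, chr12:56076799-56103505, plus strand), was at 18.6, 20.3 and 15.0 TPM, on either side of shCON, with changes of 0.12 and −0.29. ERBB4, the remaining member of the family, was below 1 TPM in mean level.

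The summed level of EGFR, ERBB2 and ERBB3 was nearly level across the libraries, at 77.0 TPM in shCON, 76.6 with shUSP16#1 and 76.2 with shUSP16#2, while its makeup differed. ERBB2 made up 16.1% of the sum in shCON, 32.4% with shUSP16#1 and 35.3% with shUSP16#2. EGFR made up 59.7%, 41.2% and 45.05%, and ERBB3 24.2%, 26.5% and 19.7%. The ratio of EGFR to ERBB2 was 3.71 in shCON, 1.27 with shUSP16#1 and 1.28 with shUSP16#2. ERBB2 thus passed from the lowest of these receptors in shCON to above ERBB3 in both hairpin libraries, and the ratio of ERBB2 to MET went from 0.353 to 1.57 and 1.89. These are ratios of transcript levels, and protein was not measured in these data.

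**Figure D2:**
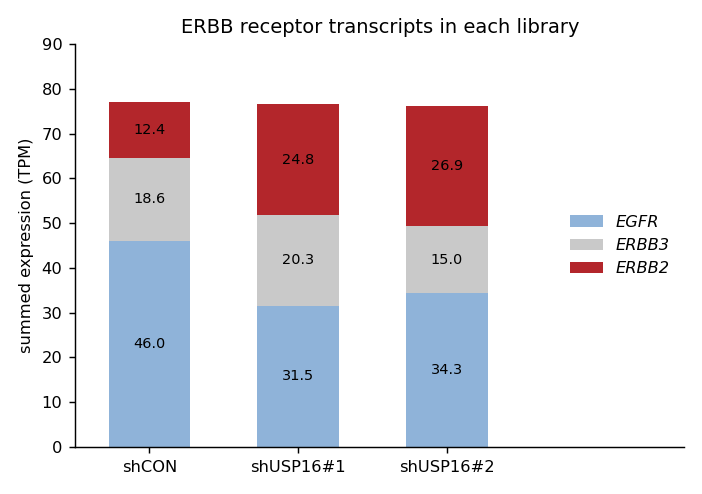
Bars that start at 0 show the TPM of EGFR, ERBB2 and ERBB3 stacked for each of the 3 libraries. The height of the stack is 77.0, 76.6 and 76.2 TPM, and the ERBB2 share is 16.1%, 32.4% and 35.3%.

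AXL, the GAS6 receptor (ENSG00000167601, chr19:41219203-41261766, plus strand), was the most abundant of the receptors in every library, at 71.5 TPM in shCON, 47.8 with shUSP16#1 and 48.0 with shUSP16#2. The hairpin libraries had nearly the same level, lower than shCON by less than 2-fold, with a change of −0.57 under each. With the GC trend removed the changes were −0.71 and −0.78. The ratio of AXL to EGFR stayed between 1.40 and 1.56. IGF1R (ENSG00000140443, chr15:98648539-98964530, plus strand) was the least abundant receptor, at 3.71, 1.78 and 1.25 TPM. Both hairpin libraries were below shCON, at 0.480 and 0.337 of its level, with changes of −0.76 and −1.07. At this low level the pseudocount weighs on the change, and with a pseudocount of 0.1 IGF1R passed 2-fold lower under both hairpins.

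Promoter windows of MET and ERBB2 are shown because these receptors lay on opposite sides of shCON with both hairpins, with the motifs found in them in capitals. RefSeq windows of 250 bases before to 50 after a transcription start (GRCh38.p14) were matched for 9 of the 10 genes (12 windows), and ERBB3 had no entry. The motifs searched, on both strands, were the E-box CACGTG that MYC proteins can bind, the AP-1 site TGANTCA, the CRE TGACGTCA, the GC box GGGCGG and the TATA box TATAAA, and none of these letter runs holds another of them. The E-box was in 7.26% of all 35116 windows and in 1 of the 12, that of MET, at base 4 after the start, outside the stretch shown. In the 250 bases before the MET start, capitals mark GC boxes, which 44.95% of all windows hold, at 160 and 95 bases before the start (chr7:116671946-116672195, plus strand, 5′ to 3′). In the ERBB2 stretch, capitals mark an AP-1 site at 222 bases before the start, a motif in 7.71% of all windows (chr17:39687844-39688093, plus strand, 5′ to 3′). The start used for this ERBB2 window lies inside the gene as GENCODE places it, from 39687914, and so does most of the stretch. A match is a run of letters and says nothing of binding.
MET: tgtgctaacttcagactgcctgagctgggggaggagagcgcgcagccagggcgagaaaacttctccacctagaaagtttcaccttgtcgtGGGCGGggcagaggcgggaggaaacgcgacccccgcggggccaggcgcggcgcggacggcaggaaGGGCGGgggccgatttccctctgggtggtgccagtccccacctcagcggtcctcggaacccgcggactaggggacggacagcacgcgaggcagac
ERBB2: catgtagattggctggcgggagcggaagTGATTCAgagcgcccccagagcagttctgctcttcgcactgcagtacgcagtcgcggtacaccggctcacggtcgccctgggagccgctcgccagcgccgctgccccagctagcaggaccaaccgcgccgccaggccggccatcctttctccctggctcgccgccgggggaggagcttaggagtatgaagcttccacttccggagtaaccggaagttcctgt

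Among the other windows, AREG held a CRE at 65 bases before its start, a motif in 1.85% of all windows. EGFR held AP-1 sites in its window inside the gene (chr7:55109589-55109888) and none in that at the gene start. TATAAA was in windows of EREG, AREG and EGFR, against 11.5% of all windows, and for EGFR this was again the window inside the gene. GC boxes were in 7 of the 12 windows.

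The ligands were as abundant as the receptors in shCON, with HBEGF the highest of all 10 genes. HBEGF, heparin-binding EGF-like growth factor, a ligand of EGFR and ERBB4 (ENSG00000113070, chr5:140332843-140346631, minus strand), was at 95.6 TPM in shCON, 73.3 with shUSP16#1 and 36.2 with shUSP16#2. The shUSP16#2 library stood apart from the other two, and the changes were −0.38 and −1.38. AREG, amphiregulin, a ligand of EGFR (ENSG00000109321, chr4:74445134-74455009, plus strand), was at 57.9, 38.4 and 24.1 TPM, with changes of −0.58 and −1.23. TGFA, transforming growth factor alpha, also a ligand of EGFR (ENSG00000163235, chr2:70447280-70554193, minus strand), was at 39.1, 37.6 and 26.6 TPM, nearly level with shUSP16#1 and lower by less than 2-fold with shUSP16#2 (−0.06 and −0.54). EREG, epiregulin (ENSG00000124882, chr4:74365143-74388751, plus strand), was at 0.29, 0.18 and 0.16 TPM and was not compared.

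With the GC trend removed, the changes with shUSP16#1 and shUSP16#2 were −0.41 and −1.40 for HBEGF, −0.40 and −0.997 for AREG and 0.03 and −0.40 for TGFA. On this scale HBEGF kept a fall of 2-fold with shUSP16#2, AREG came just short of it, and the shUSP16#1 value of TGFA was near 0. These values still hold the median changes of all compared genes, −0.17 and −0.37, and so are not distances from the GC-matched medians. Genes within 1 percentage point of GC had median changes of −0.15 and −0.36 for HBEGF, −0.35 and −0.59 for AREG and −0.30 and −0.56 for TGFA. The change of TGFA before removal was thus above its GC-matched median with shUSP16#1 and close to it with shUSP16#2. The lengths listed in the table for TGFA (985 bases) and AREG (956 bases) are shorter than their longest GENCODE transcripts (4310 and 1240 bases). A level per length of TGFA against another gene therefore depends on the transcript that was counted, whereas its change between libraries uses 1 length.

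The hairpins were next compared with each other. The difference of shUSP16#2 minus shUSP16#1 in log2(TPM + 1) was −0.996 for HBEGF, −0.65 for AREG and −0.48 for TGFA. Among receptors it was 0.12 for EGFR, 0.11 for ERBB2, 0.01 for AXL, −0.14 for MET, −0.31 for IGF1R and −0.41 for ERBB3, and the median over all compared genes was −0.21. The compared ligands thus lay below that median, as did the receptors IGF1R and ERBB3, while EGFR, ERBB2, AXL and MET lay above it. The distance from that median was no larger for TGFA than for EGFR or ERBB2. HBEGF was at percentile 3.62 of this difference and AREG at 13.2, where EGFR was at 83.8 and ERBB2 at 83.4. With 1 library per hairpin, a difference between hairpins and a difference between libraries cannot be told apart.

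**Figure D3:**
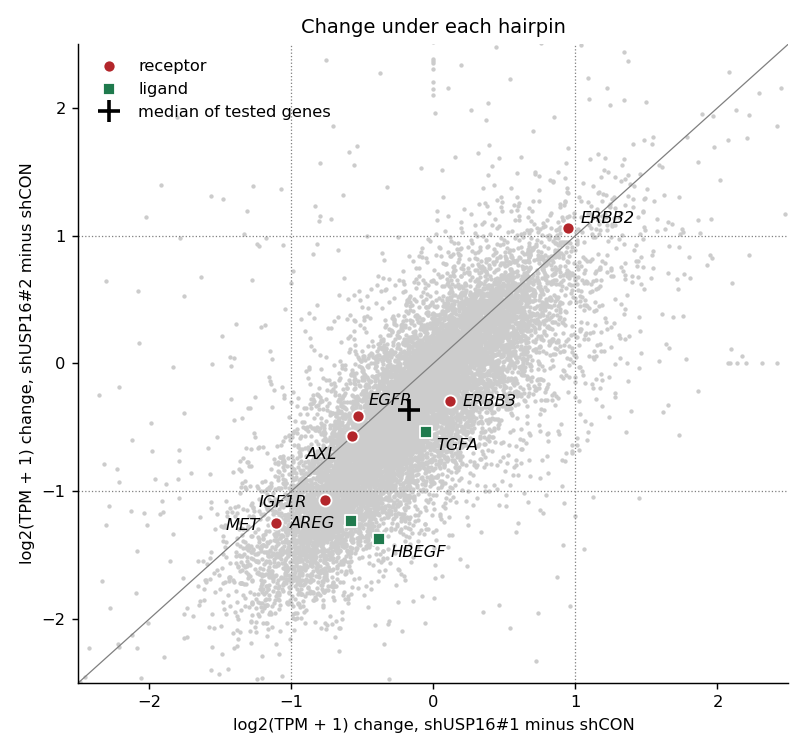
Change in log2(TPM + 1) from shCON with shUSP16#1 (horizontal axis) against that with shUSP16#2 (vertical axis). All compared genes are grey and the compared members are coloured by role, with lines at 2-fold and a cross at the median of all genes. The axes end at −2.5 and 2.5, which leaves out 207 genes. MET lies past 2-fold on both axes (−1.11 and −1.25), ERBB2 lies at 0.94 and 1.06, and IGF1R, HBEGF and AREG pass 2-fold on the vertical axis alone.

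Receptors and ligands were then set side by side. The median change of the 6 receptors was −0.55 with shUSP16#1 and −0.49 with shUSP16#2, and that of the 3 compared ligands was −0.38 and −1.23, against −0.17 and −0.37 over all compared genes. On the mean of both hairpins the receptor median was −0.52 and the ligand median −0.88, a difference of 0.36. The direction of this difference was not shared: it was −0.17 with shUSP16#1 alone and 0.74 with shUSP16#2 alone. The summed level of the receptors was 187 TPM in shCON, 142 with shUSP16#1 and 140 with shUSP16#2, and that of the 4 ligands was 193, 149 and 87.1 TPM. Ligands and receptors were thus lower by a similar share with shUSP16#1, and the ligand sum was lower again with shUSP16#2. Per unit of EGFR, ERBB2 and ERBB3 transcript, the 4 ligands stood at 2.51 in shCON, 1.95 with shUSP16#1 and 1.14 with shUSP16#2.

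The order of levels among the 10 genes differed between libraries. In shCON it ran HBEGF, AXL, AREG, EGFR, TGFA, MET, ERBB3, ERBB2, IGF1R and EREG. Under shUSP16#2 AXL came first and HBEGF next, followed by EGFR, ERBB2, TGFA, AREG, ERBB3 and MET, with IGF1R and EREG last. ERBB2 went from rank 8 in shCON to rank 6 with shUSP16#1 and rank 4 with shUSP16#2, and MET from rank 6 to rank 8 in both hairpin libraries. Without replicates, no spread is known that would separate neighbours in this order.

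Other ligands of the EGF family extended the picture. EPGN, epigen, an EGFR ligand whose gene lies near EREG, AREG and BTC on chromosome 4, was at 68.1 TPM in shCON, 37.5 with shUSP16#1 and 54.6 with shUSP16#2. Unlike HBEGF and AREG, its lower value was in the shUSP16#1 library, with changes of −0.85 and −0.31. BTC, betacellulin, was at 4.03, 3.28 and 1.34 TPM, with changes of −0.23 and −1.10. EGF and the neuregulins NRG1, NRG2, NRG3 and NRG4 were below 1 TPM in mean level. Summed over the 11 EGF-family ligands, the level was 266 TPM in shCON, 191 with shUSP16#1 and 143 with shUSP16#2.

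Ligands of the other receptors were few. GAS6, the AXL ligand, was at 46.7 TPM in shCON, 57.7 with shUSP16#1 and 51.9 with shUSP16#2, close to the level of AXL in the hairpin libraries. PROS1, protein S, which binds the sister receptors of AXL, was at 3.67, 4.20 and 2.13 TPM. IGF1 was listed at 0 in all 3 libraries. Among the sister receptors, MERTK, an AXL relative, was at 7.57 TPM in shCON, 8.20 with shUSP16#1 and 37.3 with shUSP16#2. The level of MERTK thus stood apart in the shUSP16#2 library alone, with changes of 0.10 and 2.16.

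The genes listed for the release of EGF-family ligands and its control did not move together. Of 8 such genes 7 were compared, 2 fell under both hairpins and 0 rose under both, against 4.60% and 1.14% of all compared genes, and the median changes were −0.23 and −0.24. ADAM9, a membrane protease, fell from 47.4 TPM in shCON to 18.7 with shUSP16#1 and 16.8 with shUSP16#2. ADAM10, the sheddase known for EGF and betacellulin, fell from 28.97 to 12.9 and 12.5 TPM. With the GC trend removed, the mean changes were −0.82 for ADAM9 and −0.61 for ADAM10, under 2-fold, and both transcripts are GC-poor (39.4% and 38.3%). RHBDF2, which carries the sheddase ADAM17 to the cell surface, was at 53.2, 45.1 and 56.5 TPM. ADAM17 itself was at 6.89, 6.1 and 5.7 TPM, with changes of −0.15 and −0.24, and so did not fall.

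Of 25 adaptors and effectors downstream of the receptors, 22 were compared, with median changes of −0.16 and −0.49. Of these, 1 fell under both hairpins and 0 rose under both, against the same 4.60% and 1.14%. PTPN11, the phosphatase SHP2 that links receptors to RAS, fell from 62.0 TPM in shCON to 28.6 with shUSP16#1 and 8.62 with shUSP16#2. Its mean change was −1.90, and −1.502 with the GC trend removed. The abundant effectors HRAS (98.4, 100.2 and 102.6 TPM) and MAP2K2, the kinase MEK2 (110.4, 117.9 and 128.8 TPM), were near their shCON levels.

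All 16 genes listed for the downregulation of receptors and its control were compared, with medians of −0.52 and −0.73. Under both hairpins 0 fell and 0 rose, against 4.60% and 1.14% of all compared genes. In direction alone 13 of the 16 were lower under both hairpins, against 57.2% of all compared genes. The most abundant of them, ERRFI1, an inhibitor that binds the EGFR kinase, was at 66.5 TPM in shCON, 94.7 with shUSP16#1 and 90.5 with shUSP16#2, higher in both hairpin libraries by less than 2-fold. HGS, which sorts receptors for degradation, was at 46.2, 49.5 and 47.3 TPM. Of 10 genes that ERK signalling is known to induce, 9 were compared, with medians of −0.05 and −0.53. Of these, 0 fell and 0 rose under both hairpins, against the same 4.60% and 1.14%. CCND1, cyclin D1, was at 162.6, 118.9 and 90.3 TPM, and EPHA2 was at 160.4, 149.6 and 143.2 TPM. Both were lower under each hairpin by less than 2-fold.

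Among all 58 receptor tyrosine kinases, 26 were compared, with median changes of −0.09 and −0.23. MET was the only one (1 of 26) that fell under both hairpins, and 0 rose under both, beside 4.60% and 1.14% of all compared genes. Ordered by mean change, MERTK was at the top of the 26, followed by ERBB2 at rank 2, with IGF1R at rank 25 and MET at rank 26. By level, EPHA2 and DDR1 led in shCON, with AXL at rank 3, EGFR at rank 4, MET at rank 7, ERBB3 at rank 12, ERBB2 at rank 13 and IGF1R at rank 19. MET was at rank 14 in both hairpin libraries, and ERBB2 at ranks 8 and 9. Without the 6 members, the 20 other compared receptor kinases had median changes of −0.03 and −0.10.

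**Figure D4:**
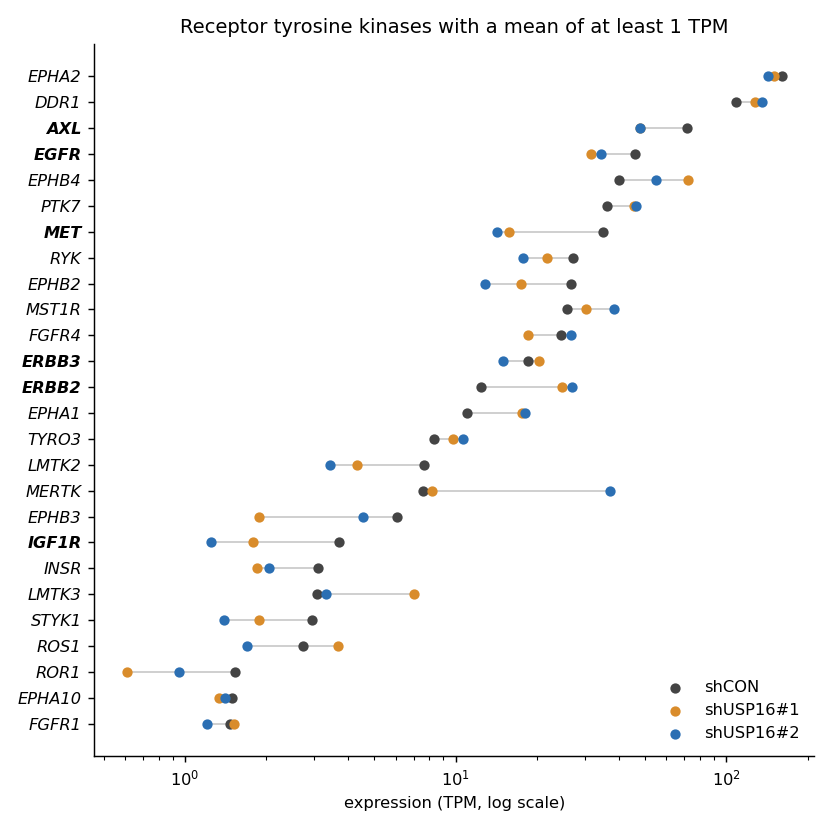
TPM (log axis) of the 26 compared receptor tyrosine kinases in the 3 libraries, 1 point per library, ordered by level in shCON, with the members' names marked. ERBB2 moves up the order (rank 13 to ranks 8 and 9) and MET down it (rank 7 to rank 14).

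The genes nearest to MET and AREG in the plane of both changes were found by distance in log2 units among compared genes whose mean TPM was within 2-fold. For MET the nearest of 4035 candidates were ZNF638 (distance 0.0073), MPP5 (0.020) and ITGA6 (0.030). ITGA6, an integrin subunit that binds laminin, was at 31.8, 14.2 and 13.1 TPM, beside 35.1, 15.8 and 14.2 TPM for MET. For AREG the nearest of 3195 candidates were TANK (0.018), COPB1 (0.026) and LAMC1 (0.033). LAMC1, a laminin chain, was at 31.7, 20.4 and 12.9 TPM. Likeness here rests on 3 libraries and ranks genes by values alone.

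**Figure D5:**
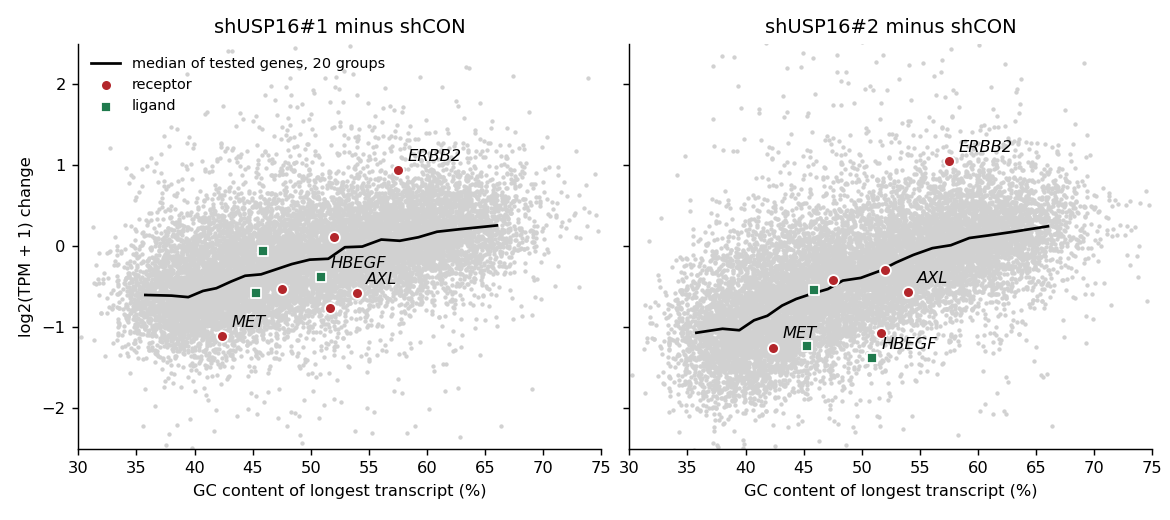
Change in log2(TPM + 1) from shCON against the GC content of the transcript in percent. Compared genes that have a value are in grey, the medians of 20 groups of equal size form a line, and members are marked. MET (42.4% GC, mean change −1.18) and ERBB2 (57.5%, 1.00) lie on the low and the high side of the line at their own GC content.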

How the data were processed

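RNA was extracted with Trizol from PC3 cells expressing shCON, shUSP16#1 or shUSP16#2, and libraries were made with an Illumina TruSeq RNA kit, per the labels. The authors deposited TPM values with 2 decimals for 60930 entries, obtained on the Majorbio Cloud Platform. The submitters' processing notes name CASAVA, HISAT2 and hg19, and the quantification tool and gene annotation are not given in the sources used here. TPM keeps no depth, so depth is unknown and no interval was given.

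Of entries sharing a name the one of highest mean was kept (1211 left out), and 3 columns repeating others were not used. Changes were log2(TPM + 1), hairpin minus shCON, over genes whose mean reached 1 TPM. Gene positions, lengths and GC content came from GENCODE 29 (GRCh38), which holds 57308 of the 59719 identifiers. The GC trend was the median of 50 bins, and after its removal the median of all compared genes was added back. Positions are thus of another build than the hg19 the notes name, and none was converted. Hairpins were taken from the study's supplementary table and promoters from RefSeq.

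The members and gene lists were chosen with earlier results of these data known. Named genes are USP16, the 10 members, in each list up to 4 genes past 2-fold under both hairpins and the 2 of highest mean, family genes below 1 TPM, and the 3 genes nearest MET and AREG. Genes of the observations were named after their values were seen, and so was ADAM17, given beside its carrier RHBDF2. One gene that the rule names is not reported here. Scripts (Python 3.11.15, numpy 2.4.6, pandas 2.3.3, matplotlib 3.10.9) were tested on simulated data.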

Additional observations from a re-analysis of the deposited data

How the results depend on the processing

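No paired analysis was possible because shCON and each hairpin have 1 library only. The spread used to say that a value moved is the SD of the 2 hairpin values, which are not replicates, and causes were not tested. Over 8 alternatives the changes of EGFR, ERBB2, MET, AXL, AREG, HBEGF, TGFA and USP16 kept their sign in all 8. That of ERBB3 did so in 6 of 8, and that of IGF1R in the 7 in which it was compared. A different minimum cannot alter the change of a single gene, and leaving out 1 hairpin gives the change under the other. The change of TGFA was −0.03 when centred. The receptor median of −0.52 was −0.25 when centred on the median of all genes and −0.47 with a minimum of 5 TPM, and ran from −0.55 to −0.49 with 1 hairpin left out. The ligand median of −0.88 ran from −1.23 to −0.38, and the difference of receptors minus ligands from −0.17 to 0.74, with 1 hairpin left out. That difference was 0.07 without a minimum, which adds EREG, and 0.17 with the GC trend removed. Genes 2-fold lower under both hairpins numbered 627, and 1095 where the pseudocount was 0.1, 273 after centring, 265 without the GC trend, 2836 at 1.5-fold and 789 to 2659 with 1 hairpin left out, the higher count without shUSP16#1. Genes 2-fold higher under both numbered 155, and 287, 341, 103 and 550 under the same alternatives, 96 with a minimum of 5 TPM and 382 to 386 with 1 hairpin left out. MET lost its 2-fold call under both hairpins when centred and with the GC trend removed, IGF1R gained one with a pseudocount of 0.1, and ERBB2 passed 2-fold higher under both when centred. Depth is unknown, so EREG, at 0.29 TPM or below, cannot be placed above or below a detection limit.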

Other observations

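Genes beside the members were described over 500000 bases to either side, and the genes named here were chosen after their values were seen. Around AREG on chromosome 4, 7 of 8 compared neighbours were lower under both hairpins, against 57.2% of all compared genes, with medians of −0.71 and −1.37. They included the neutrophil-attracting chemokine CXCL5, at 360.0 TPM in shCON, 53.6 under shUSP16#1 and 21.2 under shUSP16#2, CXCL3, at 369.9, 119.9 and 51.1 TPM, and CXCL2, at 112.5, 75.1 and 35.6 TPM. These chemokines were lowest in the shUSP16#2 library, where 73.4% of all compared genes were below their shUSP16#1 level, while the neighbour EPGN was lowest with shUSP16#1.

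Around MET on chromosome 7, 4 of 5 compared neighbours were lower under both hairpins, against the same 57.2%, with medians of −0.66 and −0.54. CAV1, caveolin 1, was at 214.5, 125.6 and 134.7 TPM. Around ERBB2 on chromosome 17, 7 of 15 compared neighbours were higher and 5 lower under both hairpins, against 24.5% and 57.2% of all compared genes, with medians of 0.28 and −0.12. GRB7, an adaptor encoded next to ERBB2, was at 5.09, 8.73 and 8.61 TPM, and CDK12, a transcription kinase in the same stretch, at 15.2, 6.21 and 4.72 TPM. Neighbours of ERBB2 thus lay on both sides of shCON.

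IGF2, a ligand of IGF1R, was at 4.27, 2.33 and 1.25 TPM, and LRIG1, which promotes the degradation of ERBB receptors, had changes of −0.97 and −1.25.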
